A study of Mus musculus with 10 samples.

Results

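The type I interferon-stimulated genes and the genes of the ISG15 system were described in the subventricular zone (SVZ) of mouse brain. The set held 36 genes, chosen by symbol or older alias, and 34 of them had at least 1 probe on the array. Probes with a detection p-value under 0.05 in 3 or more mice of one genotype were kept. That left 35 of 60 probes and 24 genes, among 20306 probes kept of 45281 on the array. Probes of Herc6 and Ifi44 were not found by name, and the 15 probes of Ifit1, Oas1a, Oas1b, Oas2, Oas3, Oasl1, Mx1, Ifih1, Xaf1 and Trim30a did not meet the rule.

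The study compared Tlx overexpressing mice with wild type mice, all of strain BL6, 8 weeks old and with an ischemic stroke induced in the striatum on 1 side. Tlx is the nuclear receptor encoded by Nr2e1, which keeps neural stem cells of the adult brain dividing and undifferentiated. The SVZ, a germinal layer that lines the lateral ventricle and makes neurons in the adult, was cut out by laser microdissection, and its RNA was hybridised to Illumina bead arrays. The 4 Tlx overexpressing mice were 2995, 3155, 3157 and 3163 and the 5 wild type mice were c1, c2, 2989, 2996 and 3164, with c1 measured on 2 arrays that were averaged. In the labels, nothing states how Tlx was overexpressed, in which cells, which side was dissected or when after the stroke.

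Type I interferons bind a receptor whose kinases phosphorylate STAT proteins. STAT2 then acts with IRF9 in a complex, ISGF3, that binds a short element in the promoters of interferon-stimulated genes, the interferon-stimulated response element (ISRE). Many of these genes encode proteins that bind viral RNA or block viral replication. ISG15 is a ubiquitin-like protein that UBA7, UBE2L6 and ligases such as HERC6 in the mouse attach to other proteins and that USP18 takes off again, and USP18 also dampens signalling at the interferon receptor. In the brain, microglia, astrocytes, endothelium and choroid plexus can all express genes of this program.

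The ISRE letters were looked for in the promoters because that element is what the genes of this set are known to share. The pattern searched was GAAANNGAAA on either strand, in RefSeq windows of build GRCm38.p6 from 250 bases before to 50 bases after each gene's start. Windows were given for 27 of the 36 genes, and 13 of these (48.1%) held the pattern, against 3.99% of 27025 mouse genes. The pattern was present for Isg15 and Ifit3 and not for Oasl2 and Ube2l6, the other genes with a window among those that rose below, and Usp18 had no window in the table. It was present for 6 of 14 genes that were tested and did not pass, and for 5 of 9 genes with no kept probe. A match is a run of letters and not a measured binding site, and no match says only that these letters are not in that window. The 2 windows of genes that rose are shown in full, with the pattern on either strand in capitals. That of Isg15 is chr4:156200769-156201068, minus strand, and that of Ifit3 is chr19:34583279-34583578, plus strand.
Isg15: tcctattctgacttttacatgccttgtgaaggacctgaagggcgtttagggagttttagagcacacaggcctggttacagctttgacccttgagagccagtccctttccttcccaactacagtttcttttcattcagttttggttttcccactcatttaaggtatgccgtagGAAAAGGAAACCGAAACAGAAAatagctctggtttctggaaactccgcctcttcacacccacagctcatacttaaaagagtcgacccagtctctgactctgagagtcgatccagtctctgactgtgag
Ifit3: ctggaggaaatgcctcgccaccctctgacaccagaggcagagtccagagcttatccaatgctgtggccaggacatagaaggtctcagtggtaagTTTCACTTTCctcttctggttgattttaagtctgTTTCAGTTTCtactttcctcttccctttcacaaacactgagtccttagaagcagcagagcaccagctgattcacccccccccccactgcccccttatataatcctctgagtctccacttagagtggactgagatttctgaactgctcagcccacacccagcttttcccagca
In Isg15, 3 overlapping matches formed 1 run from -78 to -57, counted from the start of the gene, and in Ifit3 2 separate matches on the other strand lay at -156 to -147 and at -122 to -113.

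The 6 tested genes with a match that did not pass the test are shown by the match and its flanks, to set beside these runs.
Rsad2: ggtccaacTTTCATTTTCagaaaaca
Bst2: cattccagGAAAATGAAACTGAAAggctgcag
Ifitm3: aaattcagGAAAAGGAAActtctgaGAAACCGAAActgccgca
Stat2: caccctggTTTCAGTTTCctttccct
Ddx58: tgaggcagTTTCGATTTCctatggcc
Eif2ak2: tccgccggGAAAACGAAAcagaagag
The runs of Bst2 (-130 to -115) and Ifitm3 (3 to 29 after the start) held 2 matches each. A second pattern, TTCNNNGAA, to which STAT dimers are known to bind, was in the windows of 7 of the 27 genes (25.9%), namely Ifit2, Oas1a, Irf1, Eif2ak2, Bst2, Ifitm3 and Ifi35, against 9.55% of all genes. In Bst2 and Ifitm3 it overlapped the first pattern.

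Levels are log2 signals after background correction and quantile normalization, and they are comparable between mice for 1 probe, not between probes. Differences are Tlx overexpressing minus wild type from limma over 20401 probes, a called gene has a Benjamini-Hochberg adjusted p under 0.05, and a gene with several probes is given by its brightest one. On each array 20068 to 20590 probes (44.3% to 45.5%) were detected. Nr2e1 was at 5.27, 5.36, 5.61 and 5.46 in the Tlx overexpressing mice and at 4.69, 5.02, 5.11, 5.19 and 5.07 in the wild type mice, a difference of 0.41 (SE 0.11, limma adjusted p = 0.084). Of 9 progenitor and neuroblast markers on the array, 6 were kept and all 6 had positive differences, against 50.9% of all tested probes. Dcx and Egfr were called higher, as were 0.539% of all tested probes, while Dlx5, Tubb3 and Cd24a did not meet the rule. Markers of choroid plexus, the epithelium beside the SVZ, were detected too and differed between mice, as given below. In dissected tissue, a difference in the number of cells of a type and a difference in RNA per cell cannot be told apart. Precision is limited by having 4 and 5 animals.

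Of the 24 genes tested, 23 had a positive difference, against 50.9% of all tested probes, and 1, Ifi27, had a negative one. The median difference was 0.29, against 0.0038 over all tested probes. Isg15, Usp18, Ube2l6, Ifit3 and Oasl2, 5 of the 24, were called higher and 0 lower. Over all probes 0.941% were called in either direction and 0.539% were called higher. In 7 of the 24 every Tlx overexpressing mouse lay above every wild type mouse, as for 3.24% of all tested probes. The brightest probes of Oasl2, Ddx58, Irf7 and Rtp4 met the keeping rule through the Tlx overexpressing mice alone. These counts therefore describe the kept genes and are no test of the set. The plot of differences shows the called genes well apart from most of the others, with Ube2l6 as the exception.

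**Figure D1:**
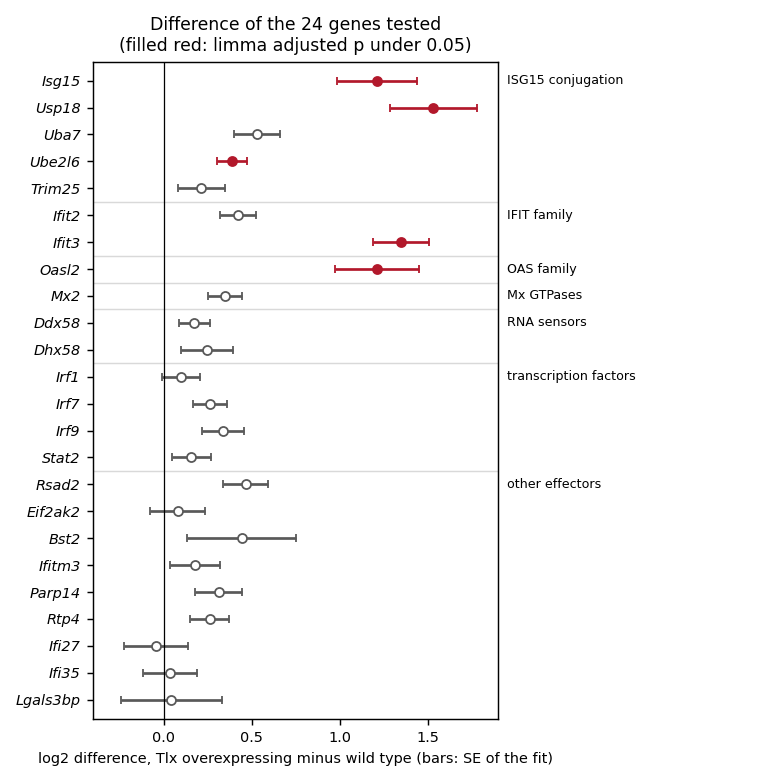
Log2 difference between 4 Tlx overexpressing and 5 wild type mice (horizontal axis, Tlx overexpressing minus wild type) for the brightest probe of each of 24 genes, ordered by role, with bars of 1 SE. Red filled points passed a limma adjusted p of 0.05, and 23 of 24 points lie right of 0, from 0.04 for Ifi35 to 1.53 for Usp18.

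In the ISG15 system, 5 of 6 genes were kept, all 5 had positive differences, and 3 of them rose. Over all tested probes 50.9% had a positive difference and 0.539% were called higher. An unadjusted limma p under 0.05 was found for 4 of the 5, against 17.6% of all tested probes. Isg15, the modifier itself, had log2 signals of 7.23, 5.85, 6.87 and 6.59 in Tlx overexpressing mice 2995, 3155, 3157 and 3163, against 5.46, 5.63, 5.63, 5.45 and 4.93 in wild type mice c1, c2, 2989, 2996 and 3164. The groups did not overlap, but mouse 3155 lay closer to the highest wild type mice than to the other Tlx overexpressing mice. The Tlx overexpressing mice averaged 6.63 ± 0.59 (SD, n = 4), against 5.42 ± 0.29 (SD, n = 5) in the wild type mice, a rise of 1.21 on the log2 scale (SE 0.23, limma adjusted p = 0.032) or 2.32-fold. It has 1 probe on the array, so no other probe could be set beside it.

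Usp18, which removes ISG15 from its targets, showed the largest difference of the 24. Its signals were 7.67, 6.56, 7.79 and 7.67 in the Tlx overexpressing mice and 6.08, 5.87, 6.33, 5.89 and 5.28 in the wild type mice. Mouse 3155 again stood below the other 3, nearest to wild type mouse 2989, and the groups did not overlap. The rise was 1.53 (SE 0.25, limma adjusted p = 0.016) or 2.89-fold, and a dimmer second probe gave 1.35 (SE 0.17, adjusted p = 0.0052), with no overlap either.

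Ube2l6, the conjugating enzyme for ISG15, rose by much less. It was at 6.19, 5.95, 6.14 and 6.12 in the Tlx overexpressing mice and at 5.60, 5.77, 5.61, 5.77 and 5.79 in the wild type mice, without overlap and with little spread in either genotype. The difference was 0.39 (SE 0.083, limma adjusted p = 0.048), at the edge of the threshold, and this call was lost in 22 of 26 alternative settings, among them leaving out any 1 of the 9 mice. Its second probe gave 0.31 (adjusted p = 0.11).

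Uba7, the activating enzyme for ISG15, did not pass. It was at 7.22, 6.55, 6.65 and 6.60 in the Tlx overexpressing mice, against 6.20, 6.33, 6.33, 6.20 and 6.06 in the wild type mice, a difference of 0.53 (SE 0.13, limma adjusted p = 0.072). Mouse 2995 stood above the other 3 Tlx overexpressing mice, and all 4 lay above every wild type mouse. Trim25, a ubiquitin and ISG15 ligase that activates the RNA sensor RIG-I, ranged from 6.80 to 7.49 in Tlx overexpressing mice and from 6.95 to 7.26 in wild type mice. Its difference was 0.22 (adjusted p = 0.43), and mouse 3155 was the lowest of all 9 mice.

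**Figure D2:**
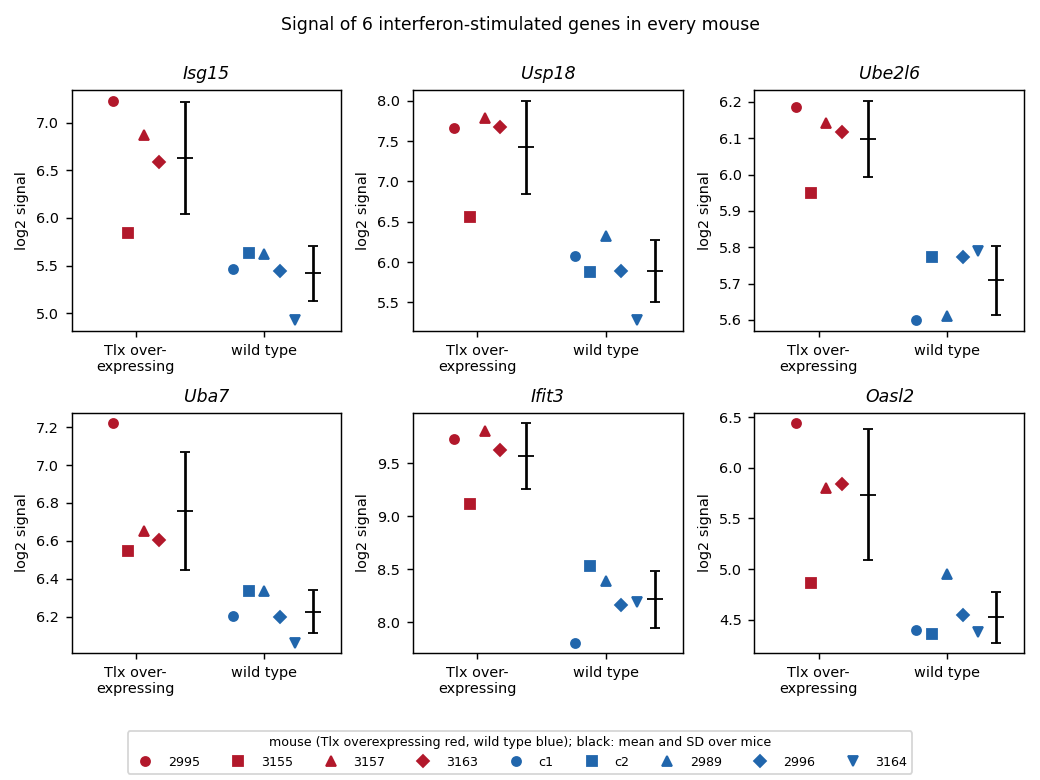
Log2 signal (vertical axes, each gene on its own scale) in each of 4 Tlx overexpressing mice (left, red) and 5 wild type mice (right, blue) for Isg15, Usp18, Ube2l6, Uba7, Ifit3 and Oasl2, with the mean and SD of each genotype in black. Mouse 3155 (red square) is the lowest Tlx overexpressing mouse in all 6 plots, and in Oasl2 it lies at 4.87, below wild type mouse 2989 at 4.95.

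The IFIT proteins bind foreign RNA ends and hinder their translation, and 2 of the 3 listed genes were kept. Ifit3 was at 9.73, 9.11, 9.80 and 9.62 in the Tlx overexpressing mice, against 7.81, 8.53, 8.39, 8.16 and 8.19 in the wild type mice. All Tlx overexpressing mice stood above all wild type mice, with mouse 3155 again the lowest of the 4 and c1 the lowest of the 9. The rise was 1.35 (SE 0.16, limma adjusted p = 0.0028) or 2.55-fold, and a dimmer probe rose by 0.91 (SE 0.16, adjusted p = 0.021). The near-identical neighbouring gene Ifit3b has no probe of its own name, so the signal may belong to either copy.

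Ifit2 did not pass, although its groups did not overlap. It was at 6.84, 6.95, 7.13 and 6.80 in the Tlx overexpressing mice and at 6.26, 6.64, 6.64, 6.53 and 6.47 in the wild type mice, a difference of 0.42 (SE 0.10, limma adjusted p = 0.069). Here mouse 3155 was not the lowest of the 4 Tlx overexpressing mice, which was 3163, the only such case among the 24 genes. A dimmer Ifit2 probe gave 0.11 (adjusted p = 0.63).

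Of the 6 listed OAS genes, whose products sense double-stranded RNA or resemble those that do, Oasl2 alone was kept. Its brightest probe was at 6.44, 4.87, 5.80 and 5.84 in the Tlx overexpressing mice and at 4.39, 4.36, 4.95, 4.54 and 4.37 in the wild type mice. Mouse 3155 overlapped the wild type mice, and that probe was detected in only 2 of the 5 wild type mice, so the size of the difference is approximate. Oasl2 rose by 1.21 (SE 0.24, limma adjusted p = 0.037) on this probe. Its other probe, detected in 4 of 5 wild type mice, was at 5.79, 5.09, 5.65 and 5.81 in the Tlx overexpressing mice and at 4.62, 4.54, 4.78, 4.49 and 4.27 in the wild type mice, a rise of 1.05 (SE 0.15, adjusted p = 0.007) with no overlap.

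Mx2, a dynamin-like antiviral GTPase, was dim. It was at 4.98, 4.63, 5.11 and 4.88 in the Tlx overexpressing mice and at 4.56, 4.63, 4.56, 4.48 and 4.53 in the wild type mice. Mouse 3155 was level with c2 to 2 decimals, and the other 3 Tlx overexpressing mice were higher. The difference of 0.35 (SE 0.096, limma adjusted p = 0.094) did not pass. Ddx58, which encodes the sensor RIG-I, differed by 0.17 (adjusted p = 0.32), and Dhx58, its relative LGP2, by 0.25 (adjusted p = 0.41). Both overlapped between genotypes and lay near background, and Ddx58 was detected in 3 of 4 Tlx overexpressing mice, against 1 of 5 wild type mice. A dimmer Dhx58 probe gave 0.15 (limma adjusted p = 0.53).

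The 4 transcription factors of the set were all kept and had positive differences, as did 50.9% of all tested probes. On the brightest probe 0 of the 4 was called (limma), while 2 had an unadjusted p under 0.05, as did 17.6% of all tested probes. Irf9, the DNA-binding partner in ISGF3, was at 7.03, 6.55, 6.97 and 6.84 in the Tlx overexpressing mice and at 6.71, 6.57, 6.59, 6.45 and 6.22 in the wild type mice. Mouse 3155 lay within the wild type range, and the difference was 0.34 (adjusted p = 0.17). A dimmer Irf9 probe separated the groups, with 6.43, 6.33, 6.45 and 6.33 in the Tlx overexpressing mice against 6.18, 5.97, 5.66, 5.29 and 5.86 in the wild type mice, and differed by 0.59 (adjusted p = 0.073). Irf7, which drives interferon gene transcription, differed by 0.26 (adjusted p = 0.18) and its probe was detected in each Tlx overexpressing mouse but in 1 of 5 wild type mice. Stat2 differed by 0.16 (adjusted p = 0.49) and Irf1 by 0.10 (adjusted p = 0.67), with overlapping groups in both. Dimmer Irf1 probes gave 0.15, 0.22 and 0.24 (limma adjusted p = 0.56, 0.29 and 0.37), also with overlap.

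Among the other effectors, 9 of 12 were kept, 8 had positive differences (against 50.9% of all tested probes) and 0 was called by limma. An unadjusted p under 0.05 was found for 3 (33.3%), against 17.6% of all tested probes. Rsad2, which encodes the antiviral enzyme viperin, was at 7.12, 6.51, 7.18 and 7.02 in the Tlx overexpressing mice and at 6.57, 6.47, 6.65, 6.46 and 6.32 in the wild type mice. Mouse 3155 lay among the wild type mice and the other 3 above all of them, with a difference of 0.47 (SE 0.13, limma adjusted p = 0.098). Parp14, an ADP-ribosyltransferase, differed by 0.31 (adjusted p = 0.25) and Rtp4, a chaperone of membrane receptors, by 0.26 (adjusted p = 0.25). The double-stranded RNA kinase gene Eif2ak2 differed by 0.079 (adjusted p = 0.83).

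Bst2, Ifitm3, Ifi27, Ifi35 and Lgals3bp shared another arrangement, in which mouse 2995 stood above all other mice while mice 3155 and 3157 lay within or below the wild type range. Eif2ak2 met the same description, but its 7.48 in mouse 2995 was barely above the 7.47 of wild type mouse c2. Its signals in mice 3155 and 3157 were 6.78 and 7.19, against a wild type range of 6.82 to 7.47. Bst2, which encodes the virion-retaining protein tetherin, was at 7.37, 5.21, 5.69 and 6.35 in the Tlx overexpressing mice and at 5.80, 5.61, 5.77, 5.73 and 5.65 in the wild type mice, with the highest and the lowest of the 9 values both in the Tlx overexpressing group. Lgals3bp, a secreted glycoprotein, was at 10.36, 8.56, 8.89 and 9.04 in the Tlx overexpressing mice and at 9.62, 9.21, 8.96, 9.12 and 8.91 in the wild type mice. In Lgals3bp mice 3155, 3157 and 3163 were thus within or below the wild type range. The differences between genotypes were 0.44 (SE 0.31, limma adjusted p = 0.48) for Bst2 and 0.04 (SE 0.29, adjusted p = 0.95) for Lgals3bp. Ifitm3, which blocks viral entry, differed by 0.18 (adjusted p = 0.54), Ifi35 by 0.04 (adjusted p = 0.93) and Ifi27 by -0.04 (adjusted p = 0.93). A second Ifi27 probe gave -0.20 (adjusted p = 0.69). Without mouse 2995 the difference was 0.038 for Bst2 and 0.0076 for Ifitm3, and without mouse 3155 it was 0.76 for Bst2 and 0.27 for Ifitm3.

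The spread among the Tlx overexpressing mice was wider for these genes than for most probes. The median SD over the 24 genes was 0.308 in Tlx overexpressing mice and 0.162 in wild type mice, against 0.131 in Tlx overexpressing mice and 0.150 in wild type mice over all tested probes. The 2 arrays of mouse c1 differed by a median of 0.103 over the 24 genes and 0.107 over all tested probes. For Bst2 they differed by 0.625, with 5.49 and 6.12, and the 5.80 given above for c1 is their mean. Mouse 3155 was the lowest of the 4 Tlx overexpressing mice for 23 of the 24 genes, as it was for 29.2% of all tested probes. Mouse 2995 was the highest of all 9 mice for 12 genes, mouse 3157 for 8 and mouse 3163 for 4, while over all tested probes these mice were highest for 6.69%, 10.1% and 8.92%, in the same order. Mouse 3155 was the highest for 0 of the 24, against 16.2% of all tested probes, and no wild type mouse was the highest for any of the 24.

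**Figure D3:**
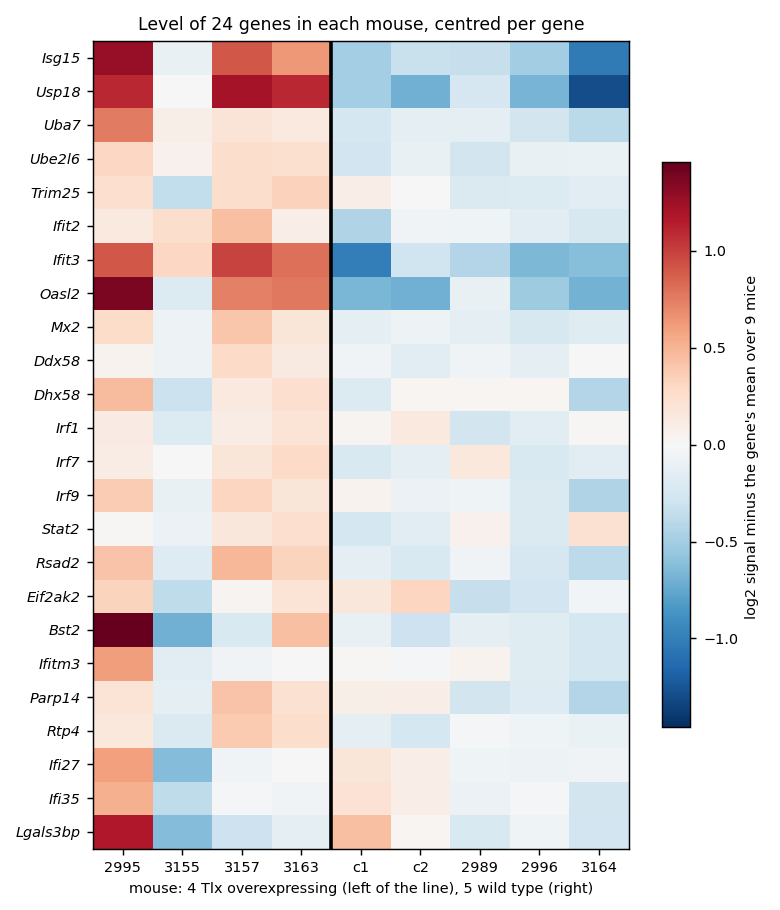
Log2 signal of 24 genes (rows of the grid) in 9 mice (columns, 4 Tlx overexpressing left of the line and 5 wild type right of it), with each gene's mean over the 9 mice taken off. Red is higher and blue lower. Of the 4 Tlx overexpressing columns, that of mouse 3155 holds the lowest value for 23 of the 24 genes, with Ifit2 as the exception. For Bst2, Ifi27, Ifi35 and Lgals3bp mouse 2995 holds the highest value of the row.

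The mean centred level of the 24 genes was 0.54, -0.18, 0.30 and 0.28 in Tlx overexpressing mice 2995, 3155, 3157 and 3163, against -0.15, -0.12, -0.13, -0.23 and -0.31 in wild type mice c1, c2, 2989, 2996 and 3164. Mouse 3155 thus lay within the wild type range, and the other 3 Tlx overexpressing mice above it. Levels of marker lists varied between the same mice. The 13 choroid plexus markers detected all had negative differences and 2 of them were called lower, against 82 of 20401 tested probes. Their levels were 0.16, -0.999, -0.49 and -0.32 in the Tlx overexpressing mice and 0.64, 0.39, 0.06, 0.29 and 0.27 in the wild type mice. Among the Tlx overexpressing mice, 3155 was lowest and 2995 highest in both the 24 genes and the choroid plexus markers, whereas between the genotypes the 2 levels differed in opposite directions.

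Microglia markers, with 11 of the 13 on the array detected, had levels of 0.07, 0.21, 0.06 and 0.05 in the Tlx overexpressing mice and of -0.16, -0.12, 0.15, -0.05 and -0.21 in the wild type mice. Mouse 3155 had the highest microglia level of the 9. Of these markers 9 were positive (against 50.9% of all tested probes), 0 was called by limma, and P2ry12 and Ptprc did not meet the rule. An unadjusted p under 0.05 was found for 6 (54.5%), against 17.6% of all tested probes. Of 12 blood leukocyte markers on the array, S100a8 alone was kept, with 6.18, 4.50, 5.39 and 5.68 in the Tlx overexpressing mice and 6.25, 4.53, 4.36, 4.32 and 4.45 in the wild type mice, and the T cell genes Cd3e and Cd8a and the monocyte gene Ccr2 were not kept. The 8 endothelial markers ranged in level from -0.17 to 0.08 in the Tlx overexpressing mice and from -0.07 to 0.11 in the wild type mice. The 7 astrocyte markers tested ranged from -0.04 to -0.01 and from -0.07 to 0.19, in the same order. In each of these lists 0 was called by limma and 1 had an unadjusted p under 0.05. The part of these cell types in the differences of the 24 genes was not tested, but fits with a marker level as a covariate were made. Fitted beside the choroid plexus level, the difference was 1.52 for Ifit3 (limma adjusted p = 0.073), 2.06 for Usp18 (adjusted p = 0.075) and 1.87 for Oasl2 (adjusted p = 0.067), and of the 24 genes Isg15 alone was called. Fitted beside the microglia level, Isg15 differed by 1.24 (adjusted p = 0.13) and Usp18 by 1.47 (adjusted p = 0.11), and Ifit3 alone was called. Calls over all tested probes were 6 beside the choroid plexus level and 31 beside the microglia level, against 192 with neither. The median difference of the 24 genes was 0.60 beside the choroid plexus level and 0.37 beside the microglia level, against 0.29 with neither. Mean choroid plexus levels were -0.41 in Tlx overexpressing and 0.33 in wild type mice, and mean microglia levels were 0.096 and -0.076. Because both levels went with genotype, the part of either level and that of genotype cannot be told apart in these fits. The SE for Ifit3 was 0.24 beside the choroid plexus level, against 0.16 with neither.

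**Figure D4:**
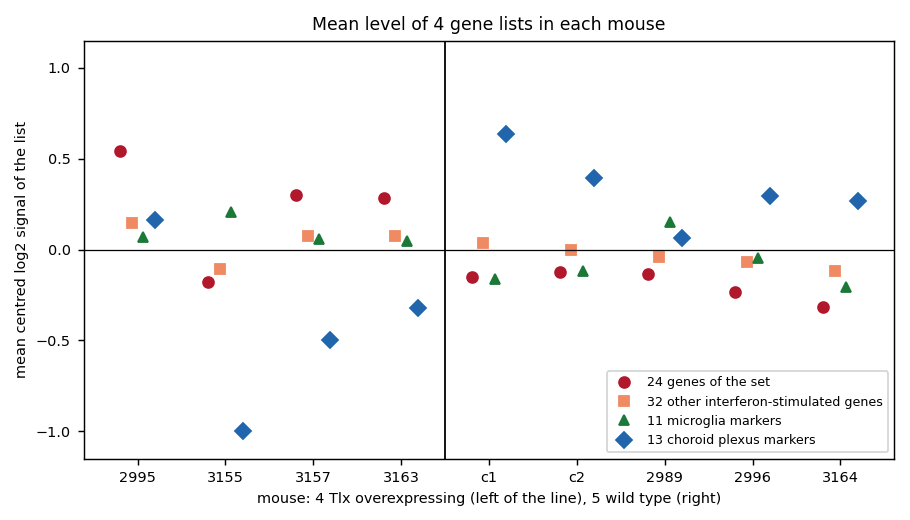
Mean centred log2 signal (vertical axis) of the 24 genes, of 32 other interferon-stimulated genes, of 11 microglia markers and of 13 choroid plexus markers in each of 4 Tlx overexpressing mice (left of the line) and 5 wild type mice (right). The 24 genes lie at 0.54, 0.30 and 0.28 in mice 2995, 3157 and 3163 and at -0.18 in mouse 3155, where the choroid plexus markers lie at -0.999.

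The mouse numbers fall in ranges whose meaning the labels do not give. Mouse 2995 could be set against wild type mice 2989 and 2996, and mice 3155, 3157 and 3163 against wild type mouse 3164. All 24 genes were positive in the first range and 20 in the second, and 20 (83.3%) were positive in both, against 27.8% of all tested probes. The differences were 1.69 and 1.505 for Isg15, 1.56 and 2.06 for Usp18, 1.45 and 1.32 for Ifit3 and 1.69 and 1.13 for Oasl2. Most of these differences did not pass within a range, where 1 genotype had only 1 mouse. These 4 genes were called in the same mice, so their signs within the ranges are no separate test. The brightest probes of Oasl2, Ddx58, Irf7 and Rtp4 met the keeping rule through the Tlx overexpressing mice alone, so the counts over the 24 genes are no test either. With the range as a block, Isg15, Usp18, Ifit3 and Oasl2 kept their calls, Ube2l6 lost its (0.38, limma adjusted p = 0.20) and Uba7 gained one (0.73, adjusted p = 0.027).

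The widest gaps between the ranges were those of Bst2 and Lgals3bp. Bst2 differed by 1.62 in the first range and 0.10 in the second, and Lgals3bp by 1.31 and -0.08. A test of the difference between the ranges called 0 of the 24 genes (limma; 5 had an unadjusted p under 0.05, and the lowest adjusted p was 0.092, for Lgals3bp). Over all tested probes it called 55 (0.27%), and 9.69% had an unadjusted p under 0.05. With 1 Tlx overexpressing mouse in the first range and 1 wild type mouse in the second, that test takes the lone mouse to vary like the others.

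**Figure D5:**
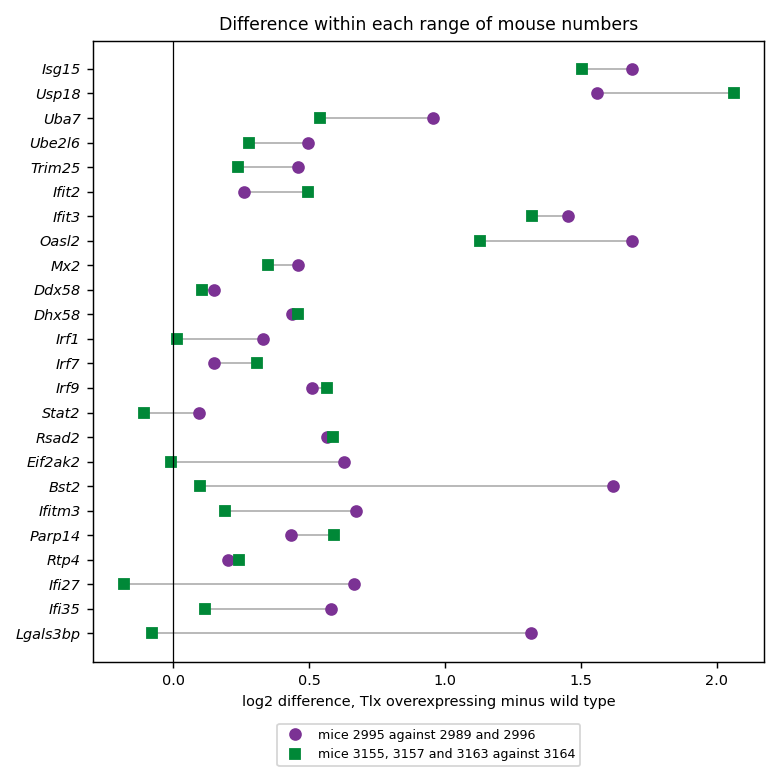
Log2 difference between Tlx overexpressing and wild type mice (horizontal axis) for 24 genes within each range of mouse numbers, with circles for mouse 2995 against mice 2989 and 2996 and squares for mice 3155, 3157 and 3163 against mouse 3164. In 20 of 24 genes both symbols lie right of 0, and Bst2 and Lgals3bp have the longest connecting lines.

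The other genes of the pathway were taken from lists of receptors and signalling proteins, ligands, nucleic acid sensors and further interferon-stimulated genes. Of 61 genes tested, 40 were positive, and 0 was called by limma in the same fit, while 9 had an unadjusted p under 0.05, 7 of them higher and 2 lower. Such a p was found for 17.6% of all tested probes, and 50.9% of all tested probes were positive. The median difference of the 61 genes was 0.046, against 0.0038 over all tested probes. Among 10 receptor and JAK-STAT genes 7 were positive. Socs3, a feedback inhibitor of cytokine receptors, was at 6.34, 6.31, 6.38 and 6.34 in the Tlx overexpressing mice and at 6.03, 6.13, 6.09, 5.93 and 5.69 in the wild type mice. The groups did not overlap, mouse 3155 was close to the other 3, and the difference of 0.37 (limma adjusted p = 0.078) did not pass. The kinase gene Jak1 differed by 0.22 (adjusted p = 0.31) and Stat3 by 0.18 (adjusted p = 0.35), and Ifnar1 was not detected in enough mice to be tested.

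Of 20 interferon genes on the array 5 were tested, and their differences ran from -0.05 for Ifnab to 0.06 for Ifnz, with Ifna6 at 0.04. The interferon alpha genes are close copies of each other, so a probe of one may read another, and Ifnb1 and Ifng were not tested because too few mice had a detected signal. Of 14 sensor and adaptor genes 9 were positive, against 50.9% of all tested probes. Those with the smallest p were Ticam1, the adaptor of Toll-like receptor 3, at -0.23 (limma adjusted p = 0.27), Traf6 at -0.14 (adjusted p = 0.32) and the kinase gene Ikbke at 0.16 (adjusted p = 0.34).

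Of 32 further interferon-stimulated genes, 21 were positive, against 50.9% of all tested probes, with a median difference of 0.076. An unadjusted limma p under 0.05 was found for 7 (21.9%), against 17.6% of all tested probes. Psmb8, an immunoproteasome subunit, was at 6.54, 6.98, 6.84 and 6.59 in the Tlx overexpressing mice and at 6.37, 6.40, 6.34, 6.23 and 6.29 in the wild type mice, a difference of 0.41 (limma adjusted p = 0.069). Its groups did not overlap and mouse 3155 was the highest of the 9, unlike in the set of 24. Oas1g, an oligoadenylate synthetase, was at 5.70, 4.94, 5.35 and 5.34 in the Tlx overexpressing mice and at 4.81, 4.78, 5.01, 4.91 and 4.97 in the wild type mice (difference 0.44, adjusted p = 0.11), with mouse 3155 again among the wild type values. The interferon-induced GTPase gene Gbp2 differed by 0.40 (adjusted p = 0.13).

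The calls depended on which mice were in the fit, as did the count of calls over all tested probes. Of the 5 called genes, Ifit3 kept its call when any 1 of the 9 mice was left out, with a difference of 1.247 to 1.499. Usp18 lost its call without mouse 3157 (1.41, limma adjusted p = 0.095) and without 3163 (1.45, adjusted p = 0.075). Isg15 lost its call without 3157, 3163, c1, 2996 or 3164, with adjusted p of 0.059 to 0.14, and Oasl2 without the same mice or c2, with adjusted p of 0.057 to 0.15.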

How the data were processed

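The authors deposited probe intensity values on a linear scale from 10 arrays, in 2 tables. The table called non-normalized held intensities already equal in distribution between arrays, with medians of 40.69 to 40.71. The other table, with medians of 36.8 to 43.2, was therefore used as the signal before normalization, the reverse of what had been planned from the table's name. For each probe, a detection p-value was deposited beside the intensities, per the file headers, which do not define it. The scanner, the software and the background treatment are not given in the sources used here. No column was left unmapped (0).

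In limma 3.58.1 (R 4.3.3), neqc removed background by normexp, with control levels estimated from the detection p-values and an offset of 16, then quantile-normalized and log2-transformed the signals. Both arrays of c1 were averaged into 1 mouse. Tests covered the 20401 probes (11376 named genes) detected in at least 4 of 9 mice. Symbols were those of the platform annotation (34885 probes with 1 symbol, 18 with several, 10378 with none), updated for 34807 probes through RefSeq. Each adjusted p is two-sided, from limma's lmFit and eBayes, by Benjamini-Hochberg over all tested probes. Simulated arrays of this design, with 50 changed probes per size, served as a test of the fit. Of these, 32% were called where the change was 1.3-fold, 80% for 1.5-fold, 98% for 2-fold and 94% for 3-fold. The changed probes were drawn from all tested probes, with noise independent between probes. In Tlx overexpressing mice the 24 genes had a median SD of 0.308, against 0.131 over all tested probes. Mouse 3155 was the lowest of that genotype for 23 of them. The simulated shares are therefore not those of the 24 genes.

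The text names every gene of the set, Nr2e1, up to 3 genes with the smallest p from each pathway list, and the other kept probes of a gene. Genes of the marker lists are given by counts, and those named were chosen after their values were seen. The set and the lists were chosen with earlier results of these data known. To get a list's level in a mouse, each gene's log2 signal was centred on its mean over 9 mice and the centred values were averaged. Alternatives changed the input table, the offset, the background correction, the scaling, the filter, the arrays of c1, array weights, the range of the mouse number, covariates and the mice.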

Additional observations from a re-analysis of the deposited data

Results flagged for a closer look

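Of 50 groups examined, the tested genes and Nr2e1 in each genotype, 5 held 1 mouse that stood apart from the others of its genotype. For independent groups chance gives about 1 in 20. These groups share the same mice and are not independent, so the count is no test against that rate. In the Tlx overexpressing group, mouse 3155 stood below the other 3 in Usp18 (6.56, nearest mouse 7.67) and in Trim25 (6.80, nearest mouse 7.41), and mouse 2995 stood above the other 3 in Uba7 (7.22, nearest mouse 6.65). In the wild type group, mouse 3164 stood below the other 4 in Isg15 (4.93, nearest mouse 5.45) and mouse 2989 above the other 4 in Irf7 (4.64, nearest mouse 4.35). Without mouse 3155 the difference was 1.82 for Usp18, and without mouse 3164 it was 1.09 for Isg15.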

How the results depend on the processing

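Ifit3 kept its call in 23 of 26 alternatives, Usp18 in 19, Isg15 in 13, Oasl2 in 10 of 25 and Ube2l6 in 4, and all 5 stayed positive in each of them. The count of called genes in the set, 5, was 2 with the authors' normalized intensities, with an offset of 50 and without background correction, 3 with probes detected in all 9 mice, 1 without a filter and 9 with array weights. It was 1 without mice c1 and c2, with the choroid plexus level and with the microglia level as covariates. Within mice 2989 to 2996 and within mice 3155 to 3164, where 1 genotype had only 1 mouse, most of the 5 genes lost their calls. In the first of these ranges other genes of the set passed instead. Leaving out 1 mouse gave 1 to 6 called genes, with 1 without 3157 or 3163, 2 without c1, 2996 or 3164 and 3 without c2. Over all probes the 192 calls were 122 with an offset of 50, 56 without a filter, 609 with array weights, 51 with the range as a block, 26 and 59 within the ranges, 100 without c1 and c2, 6 with the choroid plexus level and 31 with the microglia level. Leaving out 1 mouse gave 26 to 758, with 758 without 2995, 71 without 3155, 26 without 3157, 39 without 3163, 63 without c1, 84 without 2996 and 123 without 3164. The pathway lists, with 0 calls, had 3 with array weights and 0 to 2 on leaving out 1 mouse (2 without 2995, 1 without 3155). Signs changed in small differences: Stat2 was -0.013 with the block and -0.11 within mice 3155 to 3164. Eif2ak2 was -0.0076 within mice 3155 to 3164 and -0.013 to 0.22 on leaving out 1 mouse. Ifi27 was 0.017 with median scaling, 0.22 with the block, 0.66 within mice 2989 to 2996, 0.038 without c1 and c2, 0.65 with the choroid plexus level, 0.17 with the microglia level and -0.25 to 0.16 on leaving out 1 mouse. Lgals3bp was -0.034 with array weights and -0.080 within mice 3155 to 3164. On leaving out 1 mouse Lgals3bp ran from -0.34 to 0.26, Ifi35 from -0.13 to 0.16 and Ifna6 from -0.015 to 0.071, and Ifna6 was -0.012 with the choroid plexus level. The cause of these changes was not tested. No paired analysis was possible because the labels give mice no replicate numbers shared between genotypes. Genes near background, such as Ddx58, Irf7, Rtp4 and Mx2, are limited by their low signal.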

Other observations

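The 10 genes of the set with probes that did not meet the keeping rule had log2 signals of 4.10 to 4.55 over all mice, near the lowest level detected on the arrays. Of their 15 probes, 4 (Oas2, Mx1, Xaf1 and Trim30a) were detected in 1 mouse, in each case a Tlx overexpressing one. These signals give no order between genotypes.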
